A study of Mus musculus with 8 samples.

Results

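Described here are 8 genes of cholesterol handling in the mouse retina, chosen by symbol: 6 of sterol synthesis and its control (the enzyme genes Hmgcs1, Fdft1, Sqle and Cyp51 and the control genes Insig1 and Srebf2) and 2 of efflux (Abca1 and Abcg1). Each symbol matched 1 row of the 54532 in the gene table, and all 8 were among the 17725 genes that passed the filter on low counts. All samples were retina of the rd10 mouse, whose mutated Pde6b gene, encoding a subunit of rod phosphodiesterase, costs the eye first its rods and then its cones. All 8 libraries carry this mutation, so no healthy retina is among them. The treated group, labelled sIVs and read from the series title as small intracellular vesicles, held 4 libraries, numbered 2 to 5. The control group, labelled PBS and read as phosphate-buffered saline, held 4 libraries, numbered 1 to 4. The sources used here give neither vesicle source, dose, route, time, age or sex, nor whether each library came from its own animal. The p-values therefore measure the spread between these libraries, part of which may be technical.

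Cholesterol is built from acetyl-CoA through the mevalonate pathway in the endoplasmic reticulum. When membrane sterol runs low, the transcription factor SREBP2, encoded by Srebf2, is escorted out, cleaved and sent to the nucleus, where it switches on the synthesis enzymes. INSIG proteins hold the escort back when sterol is plentiful, and Insig1 is itself an SREBP target, which closes a feedback loop. When sterol is in excess, oxysterols activate the nuclear receptors LXR, which switch on the export pumps ABCA1 and ABCG1. In the retina, photoreceptor outer segments are shed daily and their lipid has to be cleared, and both local synthesis and export are known to take part in retinal sterol balance.

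Promoters of 5 of the 8 members were found in the RefSeq promoter table (GRCm38.p6), each running from 250 bases before to 50 bases after the annotated start. They are shown as sequence background, and whether their letters bear on the transcript levels was not tested. Capitals mark matches on either strand to TCACNCCAC, a form of the sterol regulatory element bound by SREBP, to TCACCNCA, a shorter form that can overlap it, to CCAAT, the box bound by the SREBP partner NF-Y, and to GGGCGG, the GC box. The shorter form was added after the promoters had been read, so its counts are a description and not a test.
Hmgcs1 promoter, chr13:119690101-119690400, plus strand: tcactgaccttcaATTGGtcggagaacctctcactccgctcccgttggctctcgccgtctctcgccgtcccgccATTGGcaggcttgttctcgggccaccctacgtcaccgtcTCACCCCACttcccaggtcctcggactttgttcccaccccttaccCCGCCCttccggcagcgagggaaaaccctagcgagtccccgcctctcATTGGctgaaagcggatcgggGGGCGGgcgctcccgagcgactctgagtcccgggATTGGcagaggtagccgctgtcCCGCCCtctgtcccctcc
Cyp51 promoter, chr5:4104648-4104947, minus strand: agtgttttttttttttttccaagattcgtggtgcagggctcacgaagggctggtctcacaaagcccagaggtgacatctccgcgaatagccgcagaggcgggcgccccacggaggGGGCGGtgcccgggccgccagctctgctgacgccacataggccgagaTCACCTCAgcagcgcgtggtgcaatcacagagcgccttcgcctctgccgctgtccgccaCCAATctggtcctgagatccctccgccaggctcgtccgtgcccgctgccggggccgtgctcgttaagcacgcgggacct
Insig1 promoter, chr5:28071162-28071461, plus strand: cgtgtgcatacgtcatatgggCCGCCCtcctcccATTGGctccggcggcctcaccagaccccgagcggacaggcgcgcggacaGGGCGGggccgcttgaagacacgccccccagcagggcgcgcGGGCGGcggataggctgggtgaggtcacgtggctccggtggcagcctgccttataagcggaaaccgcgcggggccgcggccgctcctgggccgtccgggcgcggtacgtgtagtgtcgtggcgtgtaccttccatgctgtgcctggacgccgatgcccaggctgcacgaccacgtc
Srebf2 promoter, chr15:82147019-82147318, plus strand: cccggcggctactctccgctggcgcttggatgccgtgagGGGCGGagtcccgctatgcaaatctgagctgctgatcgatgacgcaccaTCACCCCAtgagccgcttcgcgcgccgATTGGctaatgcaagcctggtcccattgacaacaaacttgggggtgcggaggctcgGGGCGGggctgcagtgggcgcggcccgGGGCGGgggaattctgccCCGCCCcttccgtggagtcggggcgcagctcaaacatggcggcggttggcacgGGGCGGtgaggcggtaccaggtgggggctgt
Abca1 promoter, chr4:53159846-53160145, minus strand: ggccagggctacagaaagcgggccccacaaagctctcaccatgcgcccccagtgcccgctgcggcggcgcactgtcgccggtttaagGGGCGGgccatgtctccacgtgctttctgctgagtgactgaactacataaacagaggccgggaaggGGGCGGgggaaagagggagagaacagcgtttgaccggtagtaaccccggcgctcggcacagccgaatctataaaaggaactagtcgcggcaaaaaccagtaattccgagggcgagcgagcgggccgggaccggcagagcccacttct

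The longer sterol element form was found in Hmgcs1, with its first base at position -137 from the start, and in 1.24% of the 32851 promoters of the table. The shorter form was found in Hmgcs1 at the same place, in Cyp51 at -88 and in Srebf2 at -162, and in 4.42% of all promoters. CCAAT occurred in all 4 synthesis promoters shown and not in the Abca1 window, against 37.4% of all promoters. GGGCGG occurred in all 5, against 35.7%. The 5 windows held 62.7% to 71.7% G and C, against a median of 52.7% over all promoters, so this share is not a matched one. The LXR direct repeat, read as 2 exact copies of AGGTCA with any 4 bases between them, occurred in 0 of the 5 windows and in 0.0152% of all promoters. So strict a form is absent from nearly every promoter, and copies with other letters were not searched. Its absence therefore does not show that the Abca1 window lacks an LXR element. These are letters in a window of 300 bases, not measured binding sites.

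Of the 8 members, Abca1 had the largest difference between the groups: its fitted level was 1.84-fold higher in sIVs than in PBS, carried by sIVs libraries 3 and 4. Abcg1, the other pump, had a slightly lower mean in sIVs. The 6 synthesis members had log2 fold changes between -0.26 and -0.04. Scaling by totals alone moved the median of all tested genes to 0.07 and carried Sqle and Cyp51 to 0.01 and 0.03, still below that median. None of the 8 passed edgeR's quasi-likelihood test with Benjamini-Hochberg adjustment over all tested genes at 0.05, and none passed with DESeq2 or limma-voom. Across all genes edgeR called 0 (0%), with 2702 at an unadjusted p under 0.05 (15.2%), while DESeq2 called 571 (3.22%) and limma-voom 0. The members called also stayed at 0 without the filter on low counts, where 0.45% of all genes passed, at an adjusted p of 0.1, where 0.0621% did, without sIVs libraries 3 and 4, where 0.0164% did, and without sIVs library 2, where 1331 of 17999 genes did (7.39%). Abca1 was the 1 member with an unadjusted p under 0.05. The median log2 fold change was -0.13 over the synthesis members and 0.38 over the efflux members, beside -0.01 over all tested genes.

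**Figure D1:**
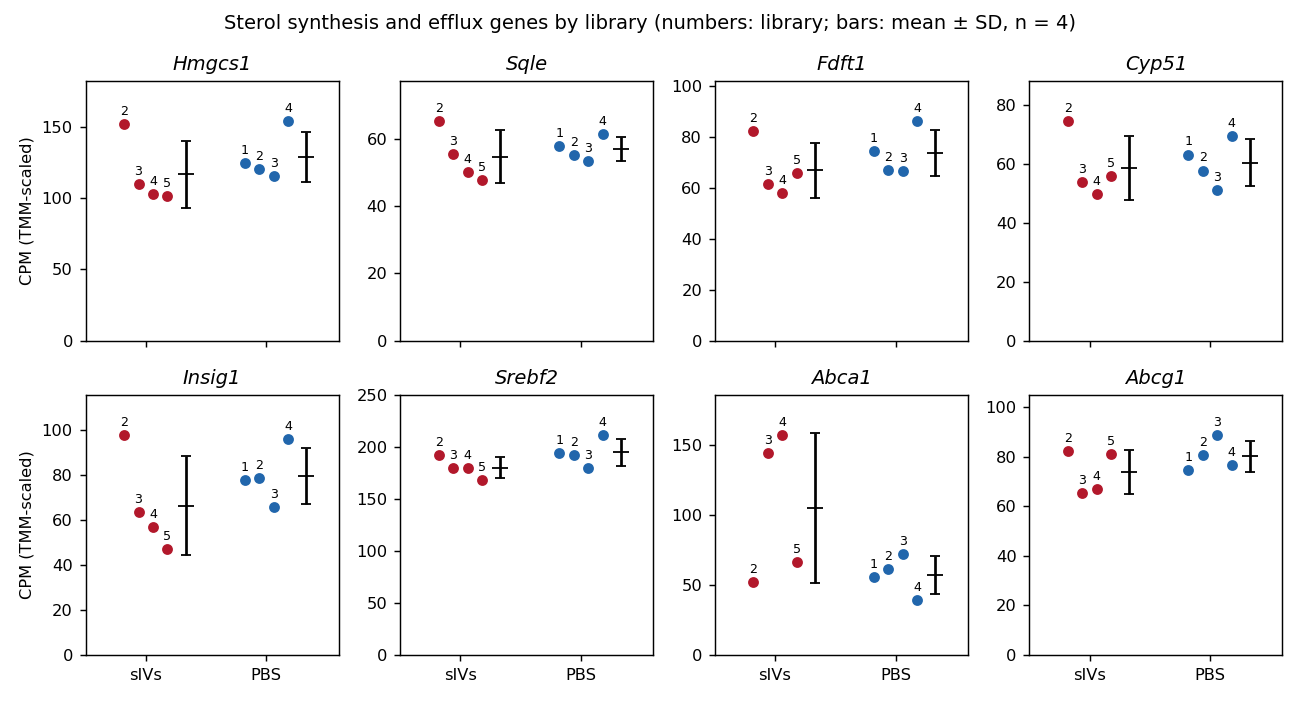
Normalised read counts (CPM, scaled by TMM) of the 8 members, with 1 point per library numbered as in the labels, sIVs left of PBS, and bars for mean ± SD (n = 4 each). Abca1 stands apart in sIVs libraries 3 and 4, at 144.2 and 157.3 CPM, and sIVs library 2 is the highest of all libraries for Sqle, Cyp51 and Insig1.

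The sIVs libraries held 15039385 to 16989737 counts in all and the PBS libraries 14640235 to 15948291. The 8 rod markers summed to 7505 to 36099 CPM in sIVs and 31608 to 38733 CPM in PBS, so the defining markers of the labelled tissue were present in every library. sIVs libraries 3 and 4 stood apart from the other 6. As a multiple of the PBS mean, their summed rod markers were at 0.228 and 0.216 and their 6 cone markers at 0.372 and 0.383. For sIVs libraries 2 and 5 the rod markers were at 1.04 and 0.832 and the cone markers at 0.813 and 0.574. The PBS libraries ran from 0.908 to 1.11 for rods and from 0.866 to 1.28 for cones. The cone sum was thus below every PBS library in all 4 sIVs libraries, not only in 3 and 4. Taken singly, 2 of the 6 cone markers were so placed, against 3.36% of all genes, and 1 had a positive log2 fold change. Their median log2 CPM relative to the PBS mean was -0.22 in sIVs library 2, close to -0.19 in PBS library 1. In bulk tissue, fewer cells of a type and less RNA per cell cannot be told apart.

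Hmgcs1 encodes the cytosolic HMG-CoA synthase, an early step of the mevalonate pathway (ENSMUSG00000093930, GRCm38 chromosome 13, 119690379 to 119708260, plus strand). It stood at 151.8, 110.1, 102.6 and 101.8 CPM across sIVs libraries 2 to 5, against 124.5, 120.1, 115.6 and 154.3 CPM across PBS libraries 1 to 4. sIVs libraries 3, 4 and 5 lay below every PBS library, and sIVs library 2 lay just under the highest one, so the groups overlapped. The log2 fold change was -0.14 ± 0.14 (SE, 95% interval -0.46 to 0.18, edgeR adjusted p = 0.667). With 1 library left out it ran from -0.30, without sIVs library 2, to -0.04, without PBS library 4 (edgeR adjusted p = 0.122 and 0.917).

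Fdft1 encodes squalene synthase, the first step committed to sterols (ENSMUSG00000021273, chromosome 14, 63145150 to 63179578, minus strand). Its values were 82.4, 61.4, 58.1 and 65.9 CPM across sIVs libraries 2 to 5, and 74.5, 67.1, 66.8 and 86.4 CPM across PBS libraries 1 to 4. The same 3 sIVs libraries were below every PBS library, library 5 narrowly, and sIVs library 2 was inside the PBS range (log2 fold change -0.14 ± 0.12 SE, edgeR adjusted p = 0.625). The value was -0.26 without sIVs library 2 and -0.06 without PBS library 4. In GENCODE M21, 774 exon bases of Fdft1, 18.3% of its exon length, are shared with Ctsb on the opposite strand, whose mean count was 893.6% of that of Fdft1. The strand setting of the counting was not given, so the Fdft1 values are uncertain.

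Sqle encodes squalene epoxidase, a rate-limiting step that uses oxygen (ENSMUSG00000022351, chromosome 15, 59315077 to 59331192, plus strand). It was at 65.3, 55.4, 50.05 and 47.8 CPM across sIVs libraries 2 to 5, against 57.9, 55.0, 53.3 and 61.5 CPM across PBS libraries 1 to 4. sIVs library 2 was the highest of the 8 libraries and sIVs library 5 the lowest, so the PBS libraries lay within the sIVs range. Its log2 fold change was -0.06 ± 0.10 (SE, 95% interval -0.29 to 0.17, edgeR adjusted p = 0.813), and 0.01 with scaling by totals, beside 0.07 over all genes. With 1 library left out it ran from -0.16, without sIVs library 2, to -0.0024, without sIVs library 5.

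Cyp51 encodes lanosterol demethylase, which acts on the first sterol of the route (ENSMUSG00000001467, chromosome 5, 4081145 to 4104746, minus strand). Its values were 74.8, 54.1, 49.9 and 56.1 CPM across sIVs libraries 2 to 5, and 63.3, 57.9, 51.2 and 69.7 CPM across PBS libraries 1 to 4. sIVs library 2 was above and sIVs library 4 below every PBS library. Its log2 fold change of -0.04 ± 0.14 (SE, 95% interval -0.35 to 0.26, edgeR adjusted p = 0.904) became 0.03 with scaling by totals, beside 0.07 over all genes. Cyp51 shares 166 exon bases, 3.76% of its exon length, with Akap9 on the opposite strand, so its values carry the same uncertainty to a smaller extent.

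Insig1, the sterol-dependent brake on SREBP, varied most among the synthesis members (ENSMUSG00000045294, chromosome 5, 28071363 to 28078662, plus strand). It stood at 97.8, 63.3, 57.0 and 47.1 CPM across sIVs libraries 2 to 5, against 77.8, 78.6, 65.8 and 95.9 CPM across PBS libraries 1 to 4. sIVs library 2 was the highest of all and sIVs libraries 3, 4 and 5 the lowest. The coefficient of variation was 33.2% in sIVs and 15.6% in PBS. The log2 fold change was -0.26 ± 0.21 (SE, 95% interval -0.72 to 0.20, edgeR adjusted p = 0.571). Leaving out sIVs library 2 gave -0.51 (edgeR adjusted p = 0.059), and leaving out sIVs library 5 gave -0.13 (edgeR adjusted p = 0.738).

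Srebf2, the gene of the transcription factor itself, had the smallest relative spread of the members in sIVs (ENSMUSG00000022463, chromosome 15, 82147181 to 82205379, plus strand). It was at 192.4, 180.2, 180.0 and 167.9 CPM across sIVs libraries 2 to 5, and at 194.8, 192.7, 180.3 and 211.9 CPM across PBS libraries 1 to 4. sIVs libraries 3, 4 and 5 lay below every PBS library, libraries 3 and 4 only narrowly, and sIVs library 2 was inside the PBS range. The log2 fold change was -0.11 ± 0.07 (SE, 95% interval -0.28 to 0.05, edgeR adjusted p = 0.496), and the coefficient of variation was 5.55% in sIVs and 6.67% in PBS, where that of Sqle was 6.28%. Cleavage of the protein, by which SREBP2 is activated, is not measured by transcript counts.

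Gene by gene, 4 of the 8 members (Hmgcs1, Fdft1, Insig1 and Srebf2) had 3 sIVs libraries below every PBS library, a pattern that 14% of all tested genes met with 3 or more. No member had non-overlapping groups, against 7.79% of all genes.

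Abca1 encodes the pump that loads cholesterol and phospholipid onto apolipoproteins (ENSMUSG00000015243, chromosome 4, 53030787 to 53159895, minus strand). It stood at 51.9, 144.2, 157.3 and 66.6 CPM across sIVs libraries 2 to 5, against 55.9, 61.4, 72.0 and 38.9 CPM across PBS libraries 1 to 4. sIVs libraries 3 and 4 were far above every PBS library, and sIVs libraries 2 and 5 were inside the PBS range. The log2 fold change was 0.88 ± 0.34 (SE, 95% interval 0.11 to 1.65, edgeR unadjusted p = 0.0292, adjusted p = 0.282). Leaving out sIVs libraries 3 and 4 gave 0.05 (edgeR adjusted p = 0.934), and leaving out sIVs library 2 gave 1.10 (edgeR adjusted p = 0.0516). Over all alternatives the adjusted p ran between those 2 values, and an exact two-sided permutation test of log2 CPM over 70 relabellings gave p = 0.2. The same exact test gave p = 0.0571 for Srebf2, the smallest of the 8 members, and 0.286 to 0.8 for the other 6.

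Abcg1 encodes a half-transporter that passes sterol to lipoprotein particles (ENSMUSG00000024030, chromosome 17, 31057698 to 31115777, plus strand). Its values were 82.4, 65.5, 66.9 and 80.8 CPM across sIVs libraries 2 to 5, and 74.7, 80.4, 88.8 and 76.7 CPM across PBS libraries 1 to 4. sIVs libraries 3 and 4, where Abca1 was highest, had the lowest Abcg1 of the 8, and sIVs libraries 2 and 5 were inside the PBS range. On the log2 scale the fold change was -0.12 ± 0.10 (SE, 95% interval -0.33 to 0.10, edgeR adjusted p = 0.593), and it was 0.02 without sIVs libraries 3 and 4. Per length, the ratio of Abca1 to Abcg1 in FPKM was 0.247, 0.864, 0.922 and 0.323 across sIVs libraries 2 to 5, against 0.294, 0.299, 0.318 and 0.199 across PBS libraries 1 to 4. sIVs libraries 3 and 4 had the highest ratios of the 8. The size of the ratio depends on the deposited Abcg1 length of 4066 bases, where GENCODE M21 gives 7298 exon bases and other ends, so which pump had the higher level is not settled there, and the place of Abcg1 in any order of FPKM shares this limit.

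**Figure D2:**
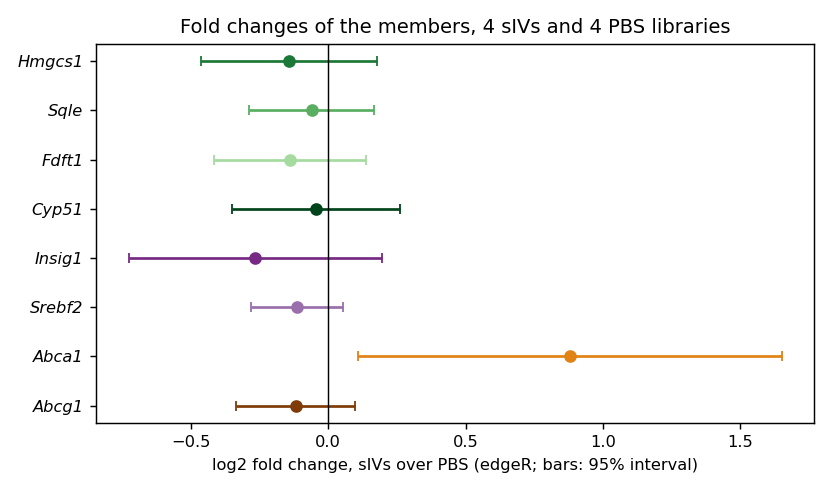
Log2 fold changes of the 8 members, sIVs over PBS, from edgeR, with bars for 95% intervals that are not adjusted for multiple tests (4 libraries per group). Abca1 lies at 0.88 with an interval of 0.11 to 1.65, and the intervals of the other 7 include 0. Scaling by totals, which moves the median of all genes to 0.07, puts Sqle at 0.01 and Cyp51 at 0.03.

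Within the synthesis arm the libraries kept nearly one order from gene to gene. PBS library 4 was among the top 2 of the 8 libraries for 6 of 6 synthesis members, and sIVs library 2 for 5 of 6, with Srebf2 the exception. sIVs library 4 was among the bottom 2 for 6 of 6, and sIVs library 5 was the lowest of all for 4 of 6. Of all 17725 tested genes, sIVs library 2 was among the top 2 for 4030. Likewise over all genes, sIVs library 4 was among the bottom 2 for 5965 and sIVs library 5 the lowest for 3075. The count over all genes was not made for PBS library 4. The median log2 CPM of the 6 genes, relative to the PBS mean, was 0.22, -0.18, -0.29 and -0.23 across sIVs libraries 2 to 5, against 0.01, -0.05, -0.14 and 0.23 across PBS libraries 1 to 4. sIVs library 2 and PBS library 4 were thus equally high, and the other 3 sIVs libraries were lower than any PBS library on this median.

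The synthesis members were then counted against the PBS range in each sIVs library. In sIVs library 2, 3 of 6 were above every PBS library, where 21.7% of all genes were, and 0 were below, where 21.2% were. In sIVs libraries 3, 4 and 5, 4, 6 and 5 of the 6 were below every PBS library, where 32.5%, 33.1% and 29.1% of all genes were. None of the 6 was above every PBS library there, where 31.8%, 32.4% and 29.8% of all genes were. With scaling by totals the counts below were 0, 3 and 5, where 19.4%, 21.5% and 26.7% of all genes were, and 1 was above in sIVs library 3, where 47.9% were. That scaling moves the genes of a library together, so the counts are to be read against these shares.

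Abca1 ran broadly in the opposite order, save in sIVs library 5. That library was the lowest of all for 4 of the 6 synthesis members, yet its Abca1 was inside the PBS range. PBS library 4, high in synthesis transcripts, had the lowest Abca1 of the 8 libraries, and sIVs library 2 the next lowest. Among the PBS libraries, library 3 had the highest Abca1 and the lowest value of each of the 6 synthesis members. The log2 difference of Abca1 minus Insig1, each relative to its PBS mean, was -0.41, 1.69, 1.96 and 1.00 across sIVs libraries 2 to 5, against 0.02, 0.14, 0.63 and -0.80 across PBS libraries 1 to 4. sIVs libraries 3, 4 and 5 were above every PBS library on this difference, and sIVs library 2 was inside the PBS range. Abca1 and Insig1 had the highest and lowest log2 fold changes of the members, so this placing follows in part from the choice of pair. How many other gene pairs were so placed was not counted. In sIVs library 5, Insig1 was the lowest of all while Abca1 itself was inside the PBS range. The median of the synthesis members minus that of the efflux members was 0.25, -0.73, -0.91 and -0.37 across sIVs libraries 2 to 5, and 0.06, -0.13, -0.40 and 0.51 across PBS libraries 1 to 4. On that measure sIVs libraries 3 and 4 were below every PBS library, and sIVs libraries 2 and 5 were not. The efflux median of 2 genes is their mean. Abcg1 was at its lowest in sIVs libraries 3 and 4, so the high efflux value there came from Abca1 alone. Both measures set genes of 1 library against each other, so the scaling between libraries cancels but for the prior count.

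**Figure D3:**
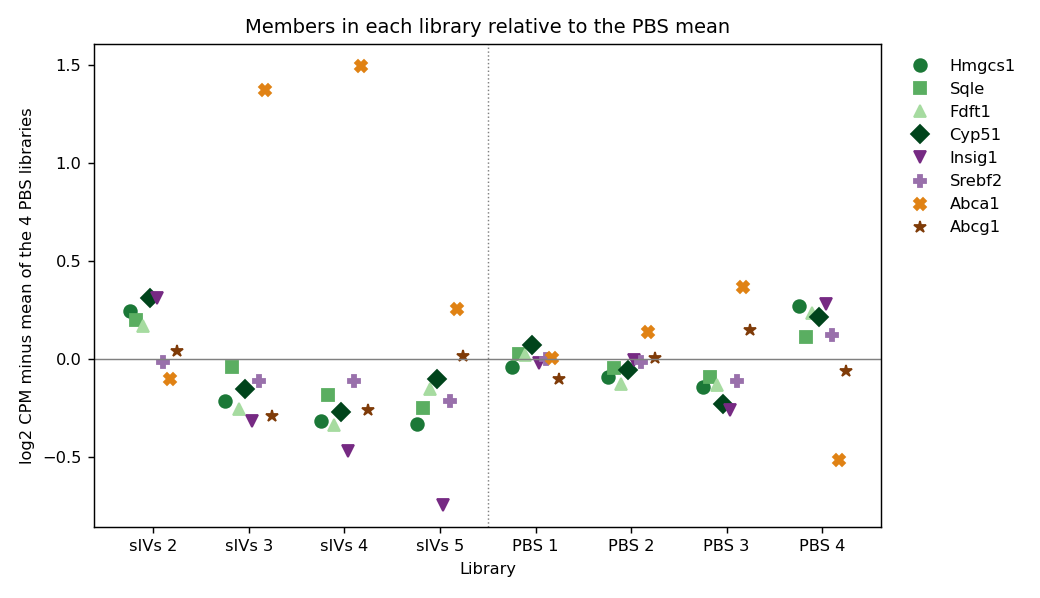
Log2 CPM of each member minus its mean over the 4 PBS libraries, by library, with sIVs left of the dotted line and PBS right of it. In sIVs library 2 and PBS library 4 the synthesis members lie above 0, save Srebf2 in sIVs library 2, with Abca1 below 0; in sIVs libraries 3, 4 and 5 and PBS library 3 the synthesis members lie below 0 with Abca1 above it.

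Levels were compared between genes in FPKM, which allows for length. Hmgcs1 and Srebf2 led, at 25.3 ± 5.24 and 25.02 ± 1.43 FPKM in sIVs and 27.9 ± 3.69 and 27.0 ± 1.72 FPKM in PBS (SD, n = 4 each). Insig1 and Abcg1 followed at 21.4 ± 7.16 and 18.1 ± 2.23 FPKM in sIVs, and at 25.6 ± 3.90 and 19.6 ± 1.56 FPKM in PBS. Neighbours down to Fdft1 in this order had overlapping ranges in both groups. Fdft1, Cyp51 and Sqle stood at 15.8 ± 2.59, 13.3 ± 2.53 and 9.83 ± 1.43 FPKM in sIVs, and at 17.4 ± 2.11, 13.7 ± 1.74 and 10.2 ± 0.613 FPKM in PBS. Their ranges were separate in PBS and overlapped in sIVs, yet their order held in all 8 libraries. Abca1 was at 10.1 ± 5.13 FPKM in sIVs and 5.49 ± 1.34 FPKM in PBS. It was the lowest member in all 4 PBS libraries and exceeded Sqle in 2 of the 4 sIVs libraries, 3 and 4.

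The route from acetyl-CoA to cholesterol was then read as a list of 22 enzyme genes, 4 of them members. Of the 22, 0 passed edgeR in either direction (0% of all genes did), and 16 had negative and 6 positive log2 fold changes, with a median of -0.09. That median was 0.06 without sIVs libraries 3 and 4, -0.18 without sIVs library 2 and -0.03 without PBS library 4. With scaling by totals 12 were negative and 10 positive and the median was -0.02, beside 0.07 over all tested genes. Ebp, a sterol isomerase, was at 22.0, 24.8, 26.1 and 24.9 CPM across sIVs libraries 2 to 5, against 22.5, 20.3, 18.1 and 21.8 CPM across PBS libraries 1 to 4. Its sIVs libraries 3, 4 and 5 were above every PBS library (log2 fold change 0.24 ± 0.10 SE, edgeR unadjusted p = 0.0322, adjusted p = 0.289), the reverse of most enzymes. Of all tested genes, 14.9% had 3 or more sIVs libraries above every PBS library, so the pattern is a common one.

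Library by library, the 22 enzymes, 4 of them members, gave counts in the same directions as the members. In sIVs library 2, 12 of the 22 enzymes were above every PBS library and 0 below, where 21.7% and 21.2% of all genes were. In sIVs libraries 3, 4 and 5, 10, 16 and 11 were below every PBS library, where 32.5%, 33.1% and 29.1% of all genes were. In the same libraries 1, 1 and 4 were above, where 31.8%, 32.4% and 29.8% of all genes were. With scaling by totals, 13 were above in sIVs library 2, where 22.3% of all genes were. By that scaling 4, 10 and 11 were below in sIVs libraries 3, 4 and 5, where 19.4%, 21.5% and 26.7% of all genes were. Those above were 4, 3 and 4, where 47.9%, 47.3% and 32.7% of all genes were. PBS library 4 was among the top 2 libraries for 14 of the 22 and sIVs library 2 for 16. Over all 17725 genes sIVs library 2 was among the top 2 for 4030, and PBS library 4 was not counted.

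**Figure D4:**
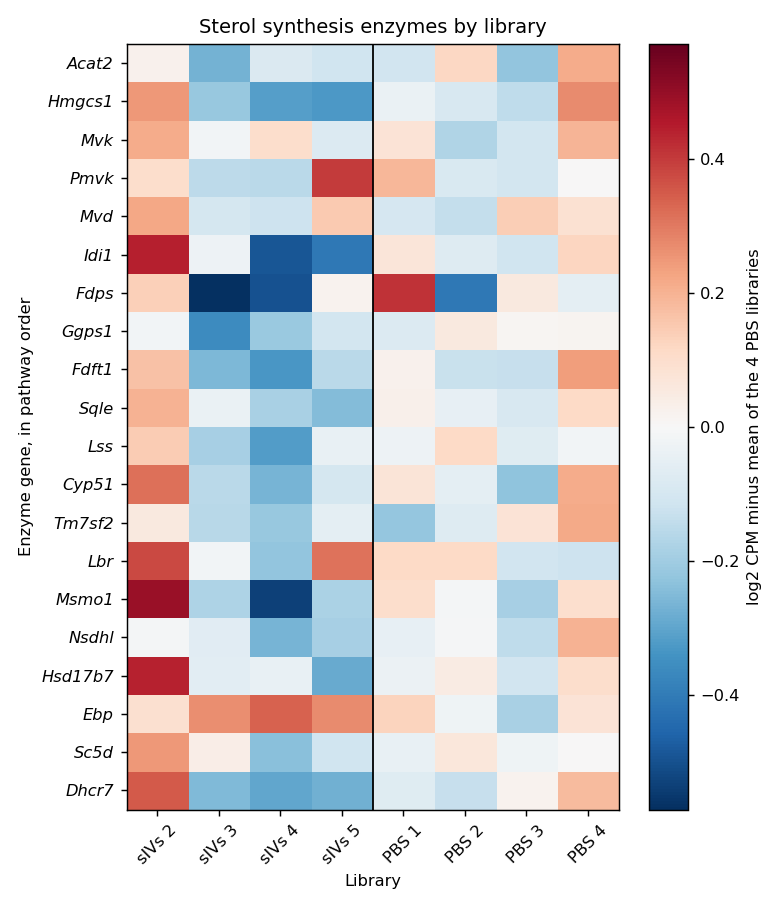
Log2 CPM of 20 of the 22 sterol synthesis enzymes, in pathway order, minus the mean of the 4 PBS libraries, with sIVs columns left of the black line and PBS columns right of it. Of the 20, 18 are above 0 in sIVs library 2 and 17 in PBS library 4, and 18 are below 0 in sIVs libraries 3 and 4 each. Ebp is above every PBS library in sIVs libraries 3, 4 and 5, where 14.9% of all tested genes had 3 or more such libraries.

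Among 11 genes of sterol sensing and uptake, 0 passed edgeR, and 7 log2 fold changes were negative and 4 positive, with a median of -0.10 that became 0.0075 without sIVs library 5. Scap, the SREBP escort, had a log2 fold change of -0.15 and Insig2, the second INSIG gene, 0.11 (edgeR adjusted p = 0.373 and 0.485). Of 9 genes of fatty acid synthesis, which SREBP1 governs, 0 passed edgeR, and 4 were negative and 5 positive. Their median of 0.03 became -0.06 without sIVs library 2 and -0.05 without sIVs libraries 3 and 4. Acss2, which makes acetyl-CoA from acetate, had the smallest p among them (-0.24 ± 0.08 SE, edgeR unadjusted p = 0.0187, adjusted p = 0.251). Acly, which makes acetyl-CoA from citrate, was lower in each of the 4 sIVs libraries than in any PBS library, as were 3.36% of all genes (-0.11, edgeR adjusted p = 0.466).

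Of 23 genes of efflux, transport and LXR, 0 passed edgeR, and 13 log2 fold changes were negative and 10 positive with a median of -0.04. With scaling by totals 10 were negative and 13 positive, with a median of 0.03. Ch25h, which makes the LXR ligand 25-hydroxycholesterol, had the largest log2 fold change of the list and a low level. It was at 1.54, 5.96, 6.68 and 2.09 CPM across sIVs libraries 2 to 5, against 2.06, 1.54, 0.972 and 1.57 CPM across PBS libraries 1 to 4. As for Abca1, sIVs libraries 3 and 4 stood far above the rest (log2 fold change 1.41 ± 0.48 SE, edgeR unadjusted p = 0.0153, adjusted p = 0.241). It was called without sIVs library 2, at 1.67 (edgeR adjusted p = 0.0405). Leaving out sIVs libraries 3 and 4 gave 0.24 (edgeR adjusted p = 0.811).

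Other genes of the list divided in sIVs libraries 3 and 4, and none passed edgeR. Lpcat3, an LXR target that remodels phospholipids, was at 17.9, 24.9, 29.5 and 16.8 CPM across sIVs libraries 2 to 5, against 14.3 to 19.1 CPM in PBS. Npc2 and Lipa, which release sterol from lysosomes, had log2 fold changes of 0.29 and 0.33, with sIVs libraries 3 and 4 above every PBS library. The neuronal pump gene Abcg4 was at 163.6, 104.4, 103.8 and 171.6 CPM across sIVs libraries 2 to 5, against 159.0 to 169.3 CPM in PBS, so the same pair of libraries was low. Vldlr and Scarb1, which encode lipoprotein receptors, were also low in that pair, with log2 fold changes of -0.38 and -0.26. Apoe, the main glial sterol carrier, was at 1053, 1197, 1416 and 770.9 CPM across sIVs libraries 2 to 5 and from 1057 to 1471 CPM in PBS (-0.26, edgeR adjusted p = 0.522). The LXR genes Nr1h2 and Nr1h3 had log2 fold changes of -0.04 and 0.09.

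Summed markers of several cell types differed between the libraries alongside Abca1. The 9 microglia markers, all detected, summed to 161.2 to 523.4 CPM in sIVs and 160.4 to 264.2 CPM in PBS, and stood at 0.905, 1.88, 2.32 and 0.716 times the PBS mean across sIVs libraries 2 to 5. Of the 9, 8 had positive log2 fold changes. The 1 that went the other way was P2ry12, a marker of resting microglia. It was lower in each of the 4 sIVs libraries than in any PBS library, as were 3.36% of all genes. The 6 other myeloid markers summed to 29.3 to 117.9 CPM in sIVs and 20.2 to 41.8 CPM in PBS, at 1.03, 3.77, 3.49 and 0.937 times the PBS mean across sIVs libraries 2 to 5. The monocyte receptor gene Ccr2, which did not pass the filter, was at 0.134, 7.46, 5.86 and 0.656 CPM across sIVs libraries 2 to 5, against 0.0641 to 0.0711 CPM in PBS. The 6 reactive glia markers, Gfap and Vim among them, summed to 901.8 to 2230 CPM in sIVs and 407.9 to 869.5 CPM in PBS. They were at 1.31, 3.06, 3.25 and 2.03 times the PBS mean across sIVs libraries 2 to 5. The 8 Müller glia markers summed to 3386 to 5422 CPM in sIVs and 4820 to 5927 CPM in PBS. The sIVs sums were at 0.815, 0.923, 1.02 and 0.634 times the PBS mean across sIVs libraries 2 to 5. The median log2 CPM of the 8, relative to the PBS mean, was -0.19, 0.53, 0.72 and -0.43 there. Of the 8, 6 had positive log2 fold changes, so the sum does not stand for most of them. The 5 oligodendrocyte markers were at 4.46 times the PBS mean in sIVs library 3 and at 0.876 to 0.978 times in the other 3 sIVs libraries. Of the oligodendrocyte markers Mobp had 0 counts in PBS library 4, and no other marker of these lists was at 0 in any library. Summed over 5 genes, endothelial markers reached 1.80 and 1.81 times the PBS mean for sIVs libraries 3 and 4. The median log2 CPM of the 5, relative to the PBS mean, was only 0.21 and 0.44 there, against -0.14 to 0.23 in PBS. The endothelial sum thus does not stand for most of its markers. The part of these cells in the Abca1 difference was not tested.

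**Figure D5:**
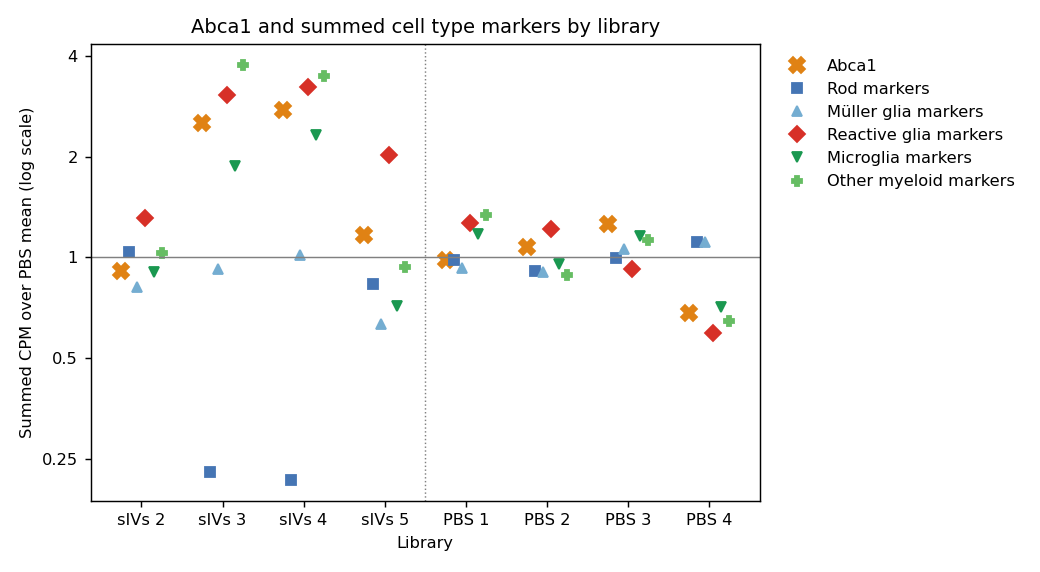
Abca1 and summed cell type markers in each library as CPM over the mean of the 4 PBS libraries, on a log axis, with sIVs left of the dotted line and PBS right of it. In sIVs libraries 3 and 4 Abca1 lies at 2.53 and 2.76 times the PBS mean, the rod markers at 0.228 and 0.216 times and the microglia markers at 1.88 and 2.32 times.

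The genes closest in profile were sought among the 11934 other genes that code for protein and averaged 5 CPM or more, by the root mean square difference in log2 CPM relative to the PBS mean over the 8 libraries. Closest to the mean of the 4 enzyme members were Grcc10, Mcts1 and Pigf, at 0.0517, 0.0632 and 0.0669, where the enzyme profile itself had a root mean square of 0.185. Closest to Abca1 were Lyn, a kinase of myeloid cells, Cebpa, a transcription factor of the myeloid lineage, and Prr5l, at 0.159, 0.167 and 0.169, where Abca1 itself had 0.759. Abcg1 varied so little, at 0.153, that 537 genes lay within 0.1 of it, BC034090, Xkr6 and Lig4 closest.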

How the data were processed

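RNA was measured in 4 sIVs and 4 PBS libraries of rd10 retina. Per the labels' protocols, TRIzol-extracted RNA was poly(A)-selected, made into strand-marked dUTP libraries and sequenced paired-end. The submitters' processing notes name mm10. No source used here gives the aligner, counter or strand setting. The authors deposited whole-number gene counts, unnormalised, and FPKM values of the same genes. Each deposited FPKM equalled count over length and library total times 1 constant per library, 0.930 to 1.03, within 0.1%.

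Tests on the counts used R 4.3.3 and edgeR 4.0.16 (filterByExpr, TMM scaling, glmQLFit and glmQLFTest, group as the only term, Benjamini-Hochberg adjustment over 17725 genes, threshold 0.05). Standard errors came from the F statistic, CPM uses TMM-scaled totals, and log2 values per library have a prior count of 2. The biological coefficient of variation was 22.3% among sIVs and 8.83% among PBS libraries. Member counts ran from 547 to 3259. No 2 libraries agreed within sampling noise. Alternatives were DESeq2 1.42.0, limma 3.58.1 (voom, and log2(FPKM + 0.1) and log2(FPKM + 1)), other scalings and filters, libraries left out, replicate blocks and another threshold.

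The members and gene lists were chosen with earlier results of these data known. Named genes are the members, the listed genes, and for each of 3 profiles the 3 closest protein-coding genes. Some listed genes are not reported here by name.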

Additional observations from a re-analysis of the deposited data

Results flagged for a closer look

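In sIVs library 2, Hmgcs1 was at 151.8 CPM, far from 110.1, 102.6 and 101.8 CPM in the other 3 sIVs libraries, though inside the PBS range of 115.6 to 154.3 CPM. The gap to its nearest neighbour was 0.834 of the range of the group, past Dixon's 95% critical value for 4 samples. In sIVs library 3 the summed oligodendrocyte markers were at 4.46 times the PBS mean, against 0.876 to 0.978 times in the other 3 (gap 0.972 of the range). These were 2 of 76 groups of 4 libraries examined, and chance flags about 1 group in 20.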

How the results depend on the processing

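The count of members past the threshold was 0 under all 20 alternatives. Of all genes, 571 passed with DESeq2, 152 of 33760 without a filter on low counts, 11 at a threshold of 0.1, 3 without sIVs libraries 3 and 4, and 0 to 1331 with 1 library left out, the 1331 without sIVs library 2. With 1 library left out, 0 to 1 pathway enzymes and 0 to 1 efflux genes passed, each 1 without sIVs library 2. The efflux median was 0.038 without sIVs libraries 3 and 4, the synthesis median of the 6 members stayed between -0.22 and -0.02, and that of the 22 enzymes turned to 0.06 without sIVs libraries 3 and 4. Signs turned for Sqle (0.014 by totals, 0.0024 with the replicate block of the title numbers), Cyp51 (0.025 by totals, 0.11 without sIVs libraries 3 and 4, and -0.18 to 0.029 with 1 library left out), and, without sIVs libraries 3 and 4, for Fdft1 (0.0067) and Abcg1 (0.024). Scaling by totals also moved the median of all genes to 0.07. For the other turns the cause was not tested. Abca1 ranged from 0.62 to 1.10 with 1 library left out. Same-numbered libraries did not deviate together (correlations -0.0749 to 0.0977 by the descriptions' numbers and -0.0605 to 0.0545 by the titles'), so the main fit treated the samples as unpaired. Correlations over all genes in so few pairs cannot exclude a pairing, and the labels state none. With either replicate block 0 genes passed, and Abca1 was 0.77 and 0.93 (edgeR adjusted p = 0.261 and 0.397). With 4 libraries per group, the spread among sIVs libraries, not counting error, limits these comparisons.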
